A study of Mus musculus with 16 samples.

Results

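Cytosolic ribosomal proteins were followed in the ventricles of neonatal mice, together with the paralogues that share their names. The rule took every row of the count table whose Ensembl identifier maps to Rpsa, Rplp0, Rplp1, Rplp2 or a mouse symbol of the form Rpl or Rps plus a number, with an optional ending a, l, x, y or l1. It found 82 of the 22468 genes in the table, of which 76 were core proteins (46 of the large and 30 of the small subunit) and 6 were paralogues ending in l or l1. Messenger RNA was selected with oligo-dT beads from whole ventricles, including the tissue above and below the ligature, in 16 samples. The 4 groups of 4 samples were wild type after sham surgery (WT sham), wild type after myocardial infarction (WT MI), Chrna7 knockout after sham surgery (KO sham) and Chrna7 knockout after infarction (KO MI). The knockout is a Jackson Laboratory strain that lacks Chrna7, the alpha 7 nicotinic acetylcholine receptor. The labels give no age in days, sex, litter, time after surgery or statement that each sample is a separate animal, so the p-values measure the spread between these samples, which may in part be technical.

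The ribosome has a small subunit that decodes the messenger and a large subunit that joins amino acids, and each core protein is present in a single copy per ribosome apart from those of the stalk. Messengers of these proteins are short and abundant. In mammals they begin with a cytosine followed by a run of pyrimidines, the 5′ terminal oligopyrimidine (TOP) motif, through which the kinase complex mTORC1 and the RNA-binding protein LARP1 control their translation and stability. Several paralogues are tissue-restricted, and Rpl3l can take the place of Rpl3 in part of the ribosomes of heart and skeletal muscle.

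The start sites of the genes on which the results turn are shown here because the TOP motif lies at the first transcribed bases. RefSeq promoters (GRCm38.p6) were found for 62 of the 82 symbols, 56 of them core genes. Each window below runs 5′ to 3′ in the direction of the gene, from 20 bases before to 20 bases after the annotated start, and capitals mark its longest run of C and T where that run has 5 letters or more (the first of equal runs). The first 3 are members of the small subunit, the next 3 of the large subunit and its stalk, and the last 3 are paralogues. The windows are at chr4:86857348-86857387 (minus strand) for Rps6, chr10:23787190-23787229 (minus) for Rps12, chr9:120127746-120127785 (plus) for Rpsa, chr2:39005112-39005151 (minus) for Rpl35, chrX:37085203-37085242 (minus) for Rpl39, chr7:141447631-141447670 (plus) for Rplp2, chr9:66946066-66946105 (plus) for Rps27l, chr17:24727806-24727845 (plus) for Rpl3l and chr17:46782637-46782676 (minus) for Rpl7l1. Rps27l and Rpl3l have 2 annotated starts each, and the upstream one is shown.
Rps6: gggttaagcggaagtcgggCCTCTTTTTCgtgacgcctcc
Rps12: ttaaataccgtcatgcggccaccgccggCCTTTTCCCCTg
Rpsa: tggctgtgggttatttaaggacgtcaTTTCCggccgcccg
Rpl35: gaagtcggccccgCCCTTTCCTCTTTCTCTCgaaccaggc
Rpl39: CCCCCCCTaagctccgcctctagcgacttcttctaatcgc
Rplp2: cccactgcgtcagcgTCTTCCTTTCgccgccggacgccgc
Rps27l: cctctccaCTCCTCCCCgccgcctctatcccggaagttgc
Rpl3l: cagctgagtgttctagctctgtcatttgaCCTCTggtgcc
Rpl7l1: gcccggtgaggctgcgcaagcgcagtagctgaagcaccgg
In Rps6, Rpl35 and Rplp2 the run spans the annotated start, and Rpl39 has an equally long run of 8 letters, left in lower case, after its start. The windows of Rpsa, Rpl3l and Rpl7l1 hold no run of 8 or more.

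A run of 8 or more C or T letters lay in the start window of 29 of 66 core promoters (43.9%), against 16.05% of all 32851 promoters in the table, and in 2 of 8 promoters of the paralogues. Over the whole promoter, 250 bases before to 50 after the start and on both strands, CCGGAAG was present in 36.4% of core promoters and 8.86% of all promoters. AAGATGGC was present in 10.6% and 2.75%, GGGCGG in 60.6% and 35.7%, CTTTC in 81.8% and 57.3%, and CACGTG in 12.1% and 7.15%. CTTTC can fall within a pyrimidine run, so those counts overlap. A match describes letters in a window and does not show that a factor binds.

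Libraries held between 10711442 and 17223580 reads in genes. Chrna7 had 0 to 4 reads in every library and so checks neither the deletion nor the labels. All 10 cardiomyocyte markers listed were present, at a summed 50465 to 92646 CPM (each gene's reads as a proportion of the library total, with totals scaled by the TMM method), and none of the cell type markers found in the table was at 0 throughout a group. KO MI replicate 4 stood apart from the other KO MI libraries, with a chi-square per degree of freedom of 57.8 to 70.0 against each of them, compared with 5.05 to 10.6 among the other 3. It had the lowest summed cardiomyocyte markers of any library (50465 CPM), the highest leukocyte markers (374 CPM, against 88.5 to 263 CPM elsewhere) and the highest lung epithelium markers (343 CPM, against 3.20 to 175 CPM elsewhere). Where the number of calls changed without it, that number is given as well. So are the members named below whose call ended. Of those whose value moved by over 1.5 times, not all are given without it.

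Of the 82 genes, 78 passed the filter on low counts, among 13412 genes tested, and their p-values were adjusted over all genes tested. The 4 that did not pass were Rpl10l, with 0 reads in all 16 libraries, Rpl39l and Rps10, each with 0 to 5 reads, and Rpl13a, with 3 to 16 reads. Rpl10l and Rpl39l are paralogues known for expression in the testis. Rps10 and Rpl13a are core proteins, and in the GENCODE M21 annotation they were the 2 members whose coding bases lie within another protein-coding gene on the same strand. The overlap covered 80.1% of the coding bases of Rps10 (by RPS10-NUDT3) and 90.3% of those of Rpl13a (by Gm45713), and both overlapping genes had 0 reads in every library. How reads that fit 2 genes or several places were treated is not given in the sources used here, so the low values of Rps10 and Rpl13a are listed as counted and are not a measure of their expression. Processed pseudogenes exist for many ribosomal protein genes, and the level of any one member is uncertain to that extent.

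Per kilobase of annotated transcript, the 74 tested core genes had mean levels from 48.1 to 1244 CPM per kb, with a median of 456 CPM per kb. Rplp1, an acidic protein of the stalk, ranked first (1244 CPM per kb), followed by Rps2 (1234 CPM per kb). The lowest core values were those of Rps15a (48.1 CPM per kb) and Rps20 (64.5 CPM per kb). Their annotated lengths of 5130 and 3706 nt far exceed the 390 and 357 positions that code in any of their annotated transcripts. Those 2 values therefore depend on which transcript is taken. Among the paralogues, Rps27l reached 173 CPM per kb, Rpl22l1 77.8, Rpl7l1 28.3 and Rpl3l 19.6 CPM per kb.

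The summed level of the core genes was lowest in KO sham. It was 26628, 26131.5, 26691 and 24722 CPM in the 4 KO sham libraries (26043 ± 915, SD, n = 4), below all 12 others, of which the lowest stood at 27432 CPM. WT sham split into a lower pair, 27443 and 29976 CPM in replicates 1 and 2, and a higher pair, 35611 and 37438 CPM in replicates 3 and 4 (32617 ± 4689). WT MI spanned 27432 to 32271 CPM (29578 ± 2312), and KO MI 29961 to 31238 CPM in replicates 1 to 3 with 39339.5 CPM in replicate 4 (32895 ± 4333). As a share of all gene counts the core genes took 3.17 ± 0.412% (WT sham), 2.98 ± 0.242% (WT MI), 2.59 ± 0.0808% (KO sham) and 3.34 ± 0.347% (KO MI). The small and large subunit sums kept their proportion: their ratio lay between 0.680 and 0.706 in all 16 libraries. In bulk tissue, fewer cells with many ribosomes and less ribosomal protein RNA per cell cannot be told apart.

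**Figure D1:**
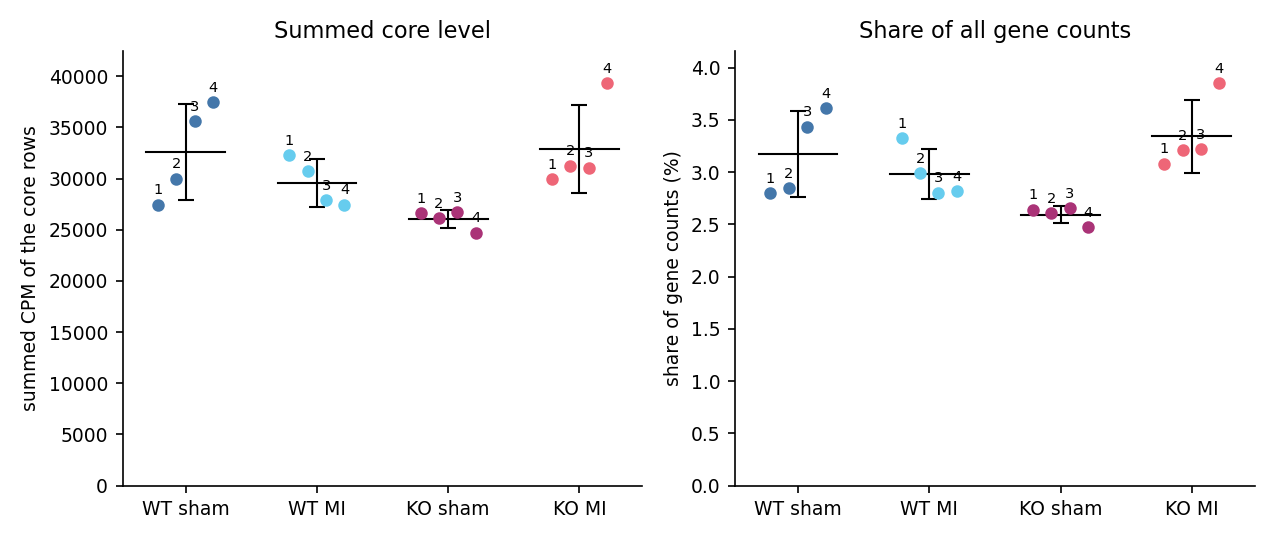
Summed level of the 76 core ribosomal protein genes in each library, as CPM (left) and as a percentage of all gene counts (right), by group. Points are libraries numbered by replicate, and bars are the mean ± SD of 4 libraries; the KO sham libraries lie at 24722 to 26691 CPM, below every other library.

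The first comparison set knockout hearts beside wild-type hearts that had sham surgery. Ribosomal protein messengers were lower in the knockout: 30 of 78 fell and 1, the paralogue Rpl3l, rose (edgeR quasi-likelihood test, adjusted p under 0.05), against 7.74% of all genes tested called lower and 7.6% called higher. All 74 core genes had negative log2 fold changes. The median over the 78 was -0.32 on the log2 scale, 1.25 times lower, and that over all genes tested was -0.01. By subunit, 20 of 45 large and 9 of 29 small subunit core genes fell, with medians of -0.33 in both. Of the 31 genes called, 14 had no overlap between the KO sham and WT sham libraries. Over all 78, of which 76 had negative log2 fold changes, there were 24 (30.8%). Of all genes tested 26.3% had no overlap, 13.98% with the knockout higher and 12.3% with the knockout lower.

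Rpsa, a small subunit protein also known as a laminin receptor (ENSMUSG00000032518, chromosome 9), stood at 703, 983, 925 and 908 CPM in WT sham and at 601, 584, 656 and 563 CPM in KO sham. Every knockout library lay below every wild-type library, and Rpsa was 1.46 times lower (log2 -0.55 with an SE of 0.14, 4 libraries per group, adjusted p = 0.0138). Rps12, a protein of the small subunit's beak (ENSMUSG00000061983, chromosome 10), had the smallest p. It stood at 159, 225, 251 and 268 CPM in WT sham and 149, 147, 159 and 152 CPM in KO sham, so that only WT sham replicate 1 touched the knockout range (log2 -0.57 ± 0.13, adjusted p = 0.00757). Rpl39, a very small protein that lines the exit tunnel of the large subunit (ENSMUSG00000079641, chromosome X), stood at 156, 161, 241 and 229 CPM in WT sham and 143, 133, 144 and 115 CPM in KO sham. Its groups did not overlap, although WT sham replicates 1 and 2 were close to the knockout (log2 -0.56 ± 0.13, adjusted p = 0.00861). The small subunit proteins Rps13 (log2 -0.50 ± 0.12, adjusted p = 0.0102) and Rps20 (-0.54 ± 0.13, adjusted p = 0.0109) fell as well, with WT sham replicate 1 inside the knockout range in each.

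The stalk proteins, which recruit elongation factors to the ribosome, fell together in this comparison. Rplp0, the scaffold of the stalk, stood at 1120.4, 1414, 1435 and 1440.2 CPM in WT sham and 1093, 1081, 1112 and 1017 CPM in KO sham (log2 -0.33 ± 0.10, adjusted p = 0.0370). Rplp1 (log2 -0.52 ± 0.14, adjusted p = 0.0183) and Rplp2 (-0.44 ± 0.14, adjusted p = 0.0429), its acidic partners, also fell. Rplp2 was at 254 and 291 CPM in WT sham replicates 1 and 2, inside or near the KO sham range of 247 to 274 CPM, and at 378 and 477 CPM in replicates 3 and 4. Rps6, the target of S6 kinase, just missed the threshold (393 ± 10.2 against 478 ± 42.4 CPM, log2 -0.28 ± 0.10, adjusted p = 0.0507). The largest differences, singled out after their values were seen, were those of Rpl38 (log2 -0.76 ± 0.22, adjusted p = 0.0305) and the zinc-binding Rps29 (log2 -0.73 ± 0.23, adjusted p = 0.0399). Both rested on WT sham replicates 3 and 4: Rps29 stood at 192 and 204 CPM in WT sham replicates 1 and 2 and at 372 and 513 CPM in replicates 3 and 4, against 177 to 205 CPM in KO sham. Rps29 was no longer called without KO MI replicate 4 (adjusted p = 0.0568).

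The number of genes called depended on single libraries, while the median was negative without any one of the 16. Among WT sham libraries, leaving out replicate 3 gave 6 (median -0.28), replicate 4 gave 8 (-0.26), replicate 2 gave 36 (-0.36) and replicate 1 gave 54 (-0.41). Leaving out any one KO sham library gave 8 to 12, and leaving out the fourth KO MI library, which enters through the shared spread, gave 49. Markers of other cell types differed in the same comparison, in both directions. All 7 erythroid markers found, of 8 listed, were lower in KO sham (991 to 1407 CPM summed, against 2966 to 4731 CPM in WT sham). Of 10 proliferation markers 4 were lower (734 to 835 against 897 to 1077 CPM), all 4 atrial markers were lower (272 to 607 against 709 to 3316 CPM), and 1 of 10 cardiomyocyte markers was lower (73580 to 76817 against 81522 to 92646 CPM). The summed leukocyte markers were higher without overlap (118 to 137 CPM in KO sham against 88.5 to 109.7 CPM), with 0 of 9 called by edgeR, as were the endothelial markers (1589 to 1680.2 against 1377 to 1569 CPM), with 1 of 6 higher and 1 lower. Fibroblast markers, at 6341 to 6691 against 6437 to 7392 CPM, overlapped, with 1 of 8 higher and 1 lower. Their part in the ribosomal protein difference was not tested.

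**Figure D2:**
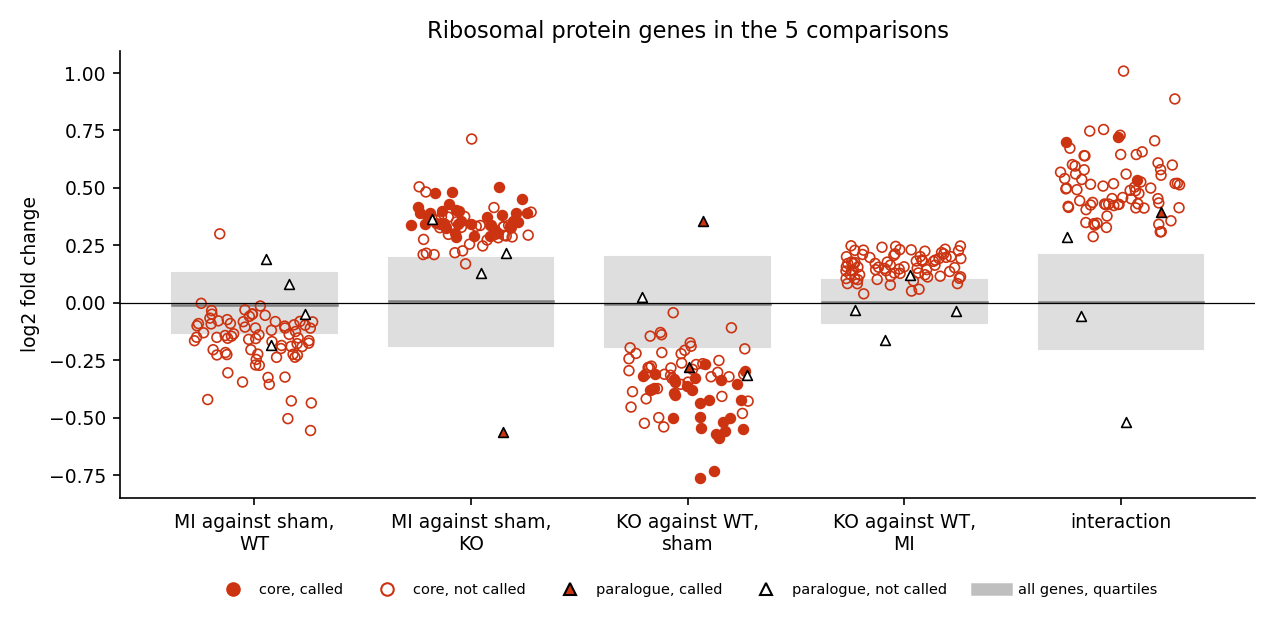
Log2 fold change of the 78 tested ribosomal protein genes in each comparison (circles, core; triangles, paralogues; filled, adjusted p under 0.05). Grey boxes span the quartiles of all genes tested; the core genes lie below 0 for knockout against wild type after sham and above 0 for infarction against sham in knockout, and Rpl3l lies on the opposite side in both.

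The second comparison followed injury in hearts without the receptor. Its reference is the KO sham group, so these libraries enter both comparisons and the interaction below. After infarction 37 of 78 ribosomal protein genes rose and 1, Rpl3l, fell, against 8.54% of all genes tested called higher and 8.02% called lower. All 74 core genes were positive, and the median over the 78 was 0.34 on the log2 scale (1.26 times), against 0.01 over all genes tested. Called genes made up 24 of 45 large and 13 of 29 small subunit core genes. All 38 called genes had no overlap between KO MI and KO sham libraries, as had 72 of the 78 (92.3%). The share of all genes tested was 23.9%, with 11.4% higher and 12.5% lower after infarction.

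Rpl35, which sits at the mouth of the exit tunnel (ENSMUSG00000062997, chromosome 2), had the smallest p among those that rose. It stood at 225, 227, 251 and 195 CPM in KO sham and 289, 298, 301 and 366 CPM in KO MI, 1.40 times higher (log2 0.48 ± 0.11, adjusted p = 0.00578). Rps6 (ENSMUSG00000028495, chromosome 4) stood at 404, 399, 389 and 381 CPM in KO sham and 478, 480.1, 495 and 619.5 CPM in KO MI (log2 0.40 ± 0.10, adjusted p = 0.00894). In both genes KO MI replicate 4 was the highest library, and the other 3 also lay above every KO sham library. Rpl6, a large subunit protein, rose 1.28 times (432 ± 14.5 to 553 ± 53.5 CPM, adjusted p = 0.00812), and Rpl24, which takes part in a bridge between the subunits, rose 1.27 times (403 ± 27.4 to 513 ± 39.7 CPM, adjusted p = 0.0114). Rpsa (log2 0.50 ± 0.14, adjusted p = 0.0208) and Rplp0 (0.30 ± 0.10, adjusted p = 0.0492) rose too. The other stalk proteins did not pass (Rplp1 0.38 ± 0.14, adjusted p = 0.0718; Rplp2 0.22 ± 0.14, adjusted p = 0.302).

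Without KO MI replicate 4, 14 genes were called (13 higher, 1 lower) and the median was 0.24. Among the members named for this comparison, those that then lost their call were Rplp0 (log2 0.23 ± 0.10, adjusted p = 0.0922), Rpl3 (0.18 ± 0.07, adjusted p = 0.0717), Rpl7 (0.22 ± 0.10, adjusted p = 0.117) and Rpl10 (0.28 ± 0.11, adjusted p = 0.0707). The number was 39, 21 or 24 when KO MI replicate 1, 2 or 3 was dropped instead. It was 14, 11, 15 and 8 when KO sham replicates 1, 2, 3 and 4 were dropped in turn. In each of these fits 77 of 78 genes stayed positive. Markers of proliferating cells moved with the members, with 6 of 10 higher (734 to 835 CPM in KO sham, 924 to 1205 CPM in KO MI), as did leukocyte markers, with 6 of 9 tested higher (118 to 137 against 159 to 374 CPM). Of 7 erythroid markers 3 were higher (991 to 1407 against 1124 to 1859 CPM), 1 of 4 atrial markers was higher (272 to 607 against 648 to 2744 CPM), and 3 of 10 cardiomyocyte markers were lower (73580 to 76817 against 50465 to 77929 CPM). The lowest cardiomyocyte sum was that of KO MI replicate 4, while KO MI replicates 1 to 3 stood at 77929, 73723 and 73845.5 CPM. The part of all these markers was not tested.

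Injury in hearts that keep the receptor gave the third comparison. No ribosomal protein gene was called in either direction (edgeR), against 1.32% of all genes tested called higher and 0.932% called lower. At an unadjusted p under 0.05 in edgeR there were 10 of 78 members, beside 2007 of the 13412 genes tested. DESeq2 called 0 members and limma voom called 1, Rpl39. Of the 78 log2 fold changes 75 were negative, with a median of -0.15, against -0.01 over all genes tested. Rpl39 had the smallest p, with a mean of 197 ± 44.5 CPM in WT sham against 157 ± 12.6 CPM in WT MI (log2 -0.32 ± 0.13, adjusted p = 0.243), followed by Rps27l (log2 -0.18 ± 0.08, adjusted p = 0.248). The WT MI libraries of Rpl39, at 166, 169.8, 143 and 149.9 CPM, overlapped WT sham replicates 1 and 2. No member separated the 2 groups, whereas 8.22% of all genes tested did. Rps6 averaged 478 ± 42.4 CPM in WT sham and 468 ± 41.7 CPM in WT MI (log2 -0.03 ± 0.10). In this comparison 5 of 7 erythroid markers were lower and 2 of 9 leukocyte markers higher.

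The fourth comparison was between injured hearts of both genotypes. No member was called by edgeR, DESeq2 or limma voom. In edgeR 0.00746% of all genes tested were called higher and the same 0.00746% called lower. At an unadjusted p under 0.05 in edgeR there were 4 of 78 members, beside 638 of the 13412 genes tested. Of the 78, 75 were positive with a median log2 fold change of 0.16, and without KO MI replicate 4 the median was 0.05 with 61 positive. Rps7 had the smallest p, at 475, 416, 454 and 433 CPM in WT MI and 473, 486, 489 and 643 CPM in KO MI (log2 0.23 ± 0.10, adjusted p = 0.976). Rps3, which lies at the entry of the messenger channel, followed (log2 0.21 ± 0.09, adjusted p = 0.976). In both, KO MI replicate 4 was far above the other 3 libraries, and without it the log2 fold changes were 0.12 ± 0.08 for Rps7 and 0.11 ± 0.07 for Rps3.

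The interaction subtracts the wild-type response to injury from the knockout response. It was called for 4 members, all higher, against 1.65% of all genes tested called higher and 1.1% called lower. They were Rpl39 (0.72 ± 0.19, adjusted p = 0.0418), Rps19, a protein mutated in Diamond-Blackfan anaemia (0.54 ± 0.14, adjusted p = 0.0447), Rps27l (0.40 ± 0.11, adjusted p = 0.0473) and Rps12 (0.70 ± 0.19, adjusted p = 0.0490). Wild-type Rps19 stood at 257, 281, 321 and 323 CPM after sham surgery and at 285, 278, 251 and 249.5 CPM after injury. The knockout gave 240.4, 239, 251 and 206 CPM, then 266, 291, 308 and 357 CPM with injury. Its lowest library was in KO sham and its highest was KO MI replicate 4. The median interaction over the 78 was 0.49 with 76 positive, against 0.00 over all genes tested. The count was not stable when libraries were dropped one at a time. It became 28 and 8 for WT sham replicates 1 and 2, 16 for WT MI replicate 2, and 6 and 2 for KO MI replicates 1 and 4. It became 0 for each of the other 11 libraries, among them all of KO sham. Without KO MI replicate 4, Rpl39 (0.62 ± 0.18, adjusted p = 0.0571) and Rps12 (0.60 ± 0.18, adjusted p = 0.0634) were no longer called.

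The paralogues did not all follow their parents. Rpl3l (ENSMUSG00000002500, chromosome 17), the muscle paralogue of the peptidyl transferase centre protein Rpl3, went the opposite way in the knockout. Wild-type values were 22.4, 28.9, 24.8 and 28.6 CPM with sham surgery and 27.1, 25.6, 28.5 and 20.3 CPM with injury. The knockout values were 35.5, 33.8, 36.2 and 28.5 CPM with sham surgery and 25.8, 19.7, 21.98 and 23.3 CPM with injury. After infarction in the knockout Rpl3l was 1.48 times lower, with no overlap (log2 -0.56 ± 0.12, adjusted p = 0.00387), and it was called in all 29 alternatives tried (log2 -0.76 to -0.50, adjusted p = 9.55e-05 to 0.0187). In KO sham it was 1.28 times higher than in WT sham (log2 0.36 ± 0.12, adjusted p = 0.0455). That call held in 21 of 29 alternatives (adjusted p = 0.00158 to 0.118), and the groups overlapped through KO sham replicate 4. The 8 fits that lost it used the replicate block or left out 1 library: WT sham replicate 1 or 3, KO sham replicate 1, 2 or 3, WT MI replicate 1 or, in KO MI, replicate 3. With any single library left out, its log2 fold change ranged from 0.29 to 0.42.

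Rpl3 itself averaged 848 ± 45.4 CPM (WT sham), 820.0 ± 50.7 CPM (WT MI), 738 ± 18.7 CPM (KO sham) and 903 ± 128 CPM (KO MI), and it rose with infarction in the knockout (log2 0.29 ± 0.09, adjusted p = 0.0334). For every 100 Rpl3 reads there were 3.09 ± 0.347 Rpl3l reads (WT sham), 3.10 ± 0.453 (WT MI), 4.53 ± 0.372 (KO sham) and 2.55 ± 0.471 (KO MI). The KO sham libraries, at 4.68, 4.61, 4.85 and 3.995, lay above all other libraries, of which the highest was 3.69 in WT MI replicate 3. With both genes scaled to annotated transcript length the group means were 3.04, 3.04, 4.45 and 2.51 in the same order. The ratio compares 2 genes of nearly the same annotated length, 1375 and 1351 nt.

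**Figure D3:**
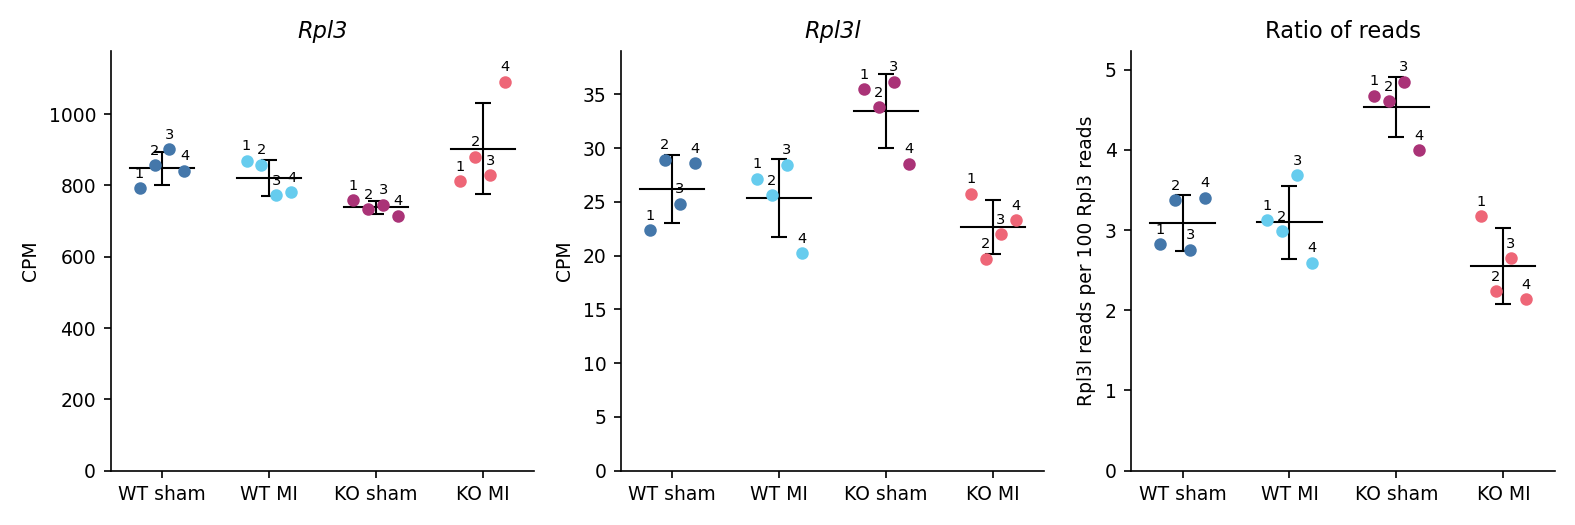
CPM of Rpl3 (left) and Rpl3l (middle) and Rpl3l reads per 100 Rpl3 reads (right) in each library, by group, with mean ± SD of 4 libraries and replicate numbers beside the points. The 4 KO sham libraries have the highest ratios, 3.995 to 4.85.

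Rpl7l1, a nucleolar factor of ribosome assembly, stayed between 44.2 and 62.3 CPM in all libraries and passed in no comparison, with log2 0.02 ± 0.08 for knockout against wild type after sham and 0.13 ± 0.08 for infarction against sham in the knockout. Its parent Rpl7 rose in the latter (log2 0.34 ± 0.11, adjusted p = 0.0450). Rps27l, a target gene of p53, averaged 94.5 ± 7.95 CPM (WT sham), 83.3 ± 1.71 CPM (WT MI), 77.9 ± 1.42 CPM (KO sham) and 90.5 ± 6.91 CPM (KO MI), and fell in the knockout after sham without overlap (log2 -0.28 ± 0.08, adjusted p = 0.0173). There were 52.2 ± 15.3, 53.6 ± 7.66, 56.2 ± 3.68 and 56.1 ± 2.53 Rps27l reads per 100 Rps27 reads in the same order, and these means differed by less than the spread between the WT sham libraries. Rpl22l1, whose product is close to the RNA-binding large subunit protein Rpl22, was at 44.1 ± 8.55, 46.6 ± 8.20, 35.5 ± 0.899 and 45.8 ± 7.11 CPM and passed in no comparison (infarction in knockout, log2 0.37 ± 0.14, adjusted p = 0.0693). There were on average 27.2, 30.7, 25.5 and 26.9 Rpl22l1 reads per 100 Rpl22 reads in the same order. Scaled to annotated transcript length, the values were 101 ± 34.5, 114 ± 26.0, 94.8 ± 6.31 and 99.9 ± 11.4 per 100 of Rpl22. The annotated lengths are 552 nt for Rpl22l1 and 2048 nt for Rpl22, and 433 and 384 positions code in any of their annotated transcripts. The scaled values therefore depend on which Rpl22 transcript is taken. Rpl39l had at most 0.228 reads per 100 of Rpl39, a count of 5 or fewer per library. Among parents, Rpl10 fell in KO sham against WT sham (log2 -0.38 ± 0.11, adjusted p = 0.0238) and rose with infarction in the knockout (0.33 ± 0.11, adjusted p = 0.0429), as did Rps4x (-0.32 ± 0.10, adjusted p = 0.0310, and 0.36 ± 0.10, adjusted p = 0.0153), while Rpl22 and Rps27 passed in neither.

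The core genes varied together across the 16 libraries. The correlation of each gene's log2 CPM with the median of the other core genes had a median of 0.89 over 74 genes, and 34 exceeded 0.9. Taken within groups the median was 0.88. These libraries share their depth and composition, so the values describe and do not test co-variation. The 3 lowest were Rps27a (0.54), Rpl10 (0.61) and Rpl9 (0.64). Rps27a, which encodes ubiquitin fused to a small subunit protein, was low in WT sham replicate 1 (75.5 CPM) and KO sham replicate 1 (74.9 CPM), whereas the remaining libraries spanned 169.9 to 310.3 CPM. Its standard error was the largest among the 78 members after sham (knockout against wild type after sham, log2 -0.31 ± 0.34, adjusted p = 0.570), and it passed in no comparison.

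Transcript length moved with the result. The core genes are short, with a median annotated length of 803.5 nt against 2919 nt over the genes tested, and 69.7% of them, against 6.48% of genes tested, are under 1000 nt. Genes outside the family shifted by length in the same 2 comparisons. For knockout against wild type after sham, the 645 other genes of 600 to 1000 nt had a median log2 fold change of -0.18 and the 4080 of 4000 nt or more a median of 0.14, while the 32 core genes of 600 to 1000 nt had a median of -0.31. For infarction against sham in the knockout, the same classes had medians of 0.19, -0.16 and 0.34. Other genes of 600 to 1000 nt were called lower in 18.4% of cases after sham, and called higher in 20.6% of cases after infarction in the knockout. Within the family, the 20 core genes under 600 nt had a median of -0.49 for knockout against wild type after sham and those of 1000 to 2000 nt a median of -0.30. For infarction in the knockout the medians of the same classes were both 0.34. Relative to the mean over all libraries (log2), the 4 KO sham libraries had the lowest medians of the ribosomal protein genes (-0.27 to -0.17) and of other genes under 1000 nt (-0.22 to -0.08), and the highest of other genes of 4000 nt or more (0.09 to 0.16). KO MI replicate 4 and WT sham replicates 4 and 3 had the highest medians of the ribosomal protein genes (0.39, 0.32 and 0.25). They were also highest for the short genes (0.15, 0.16 and 0.10). WT sham replicates 1 and 2 stood at -0.13 and -0.01 for the ribosomal protein genes and at -0.04 and -0.02 for the short genes.

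**Figure D4:**
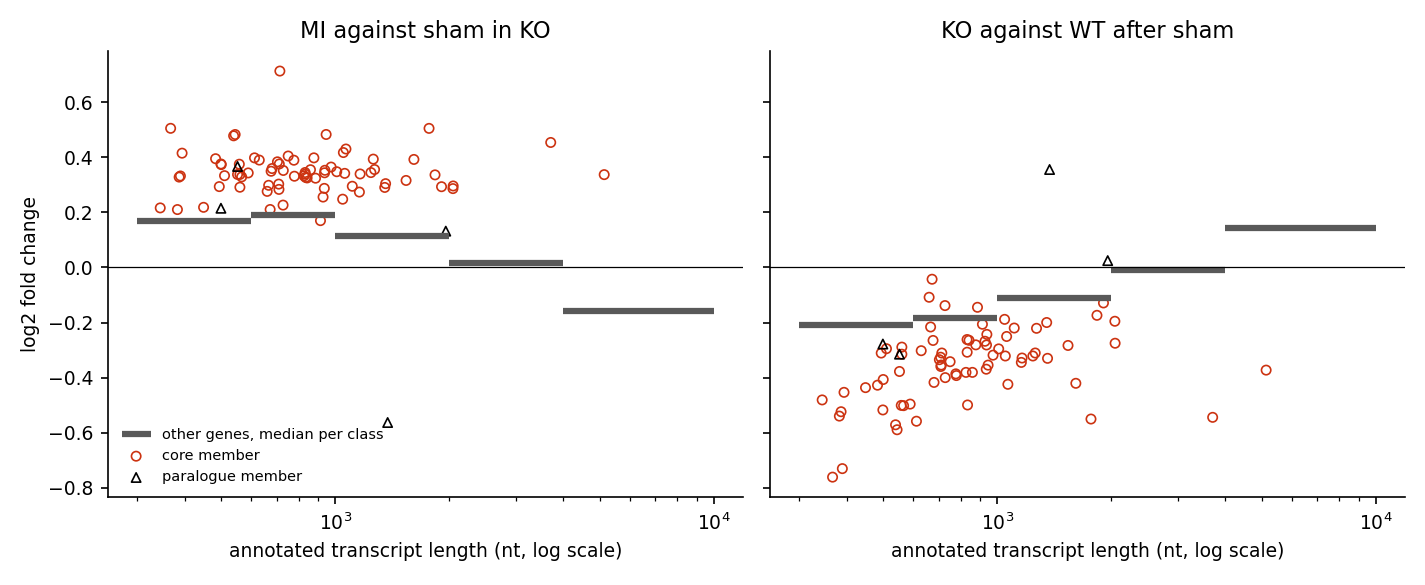
Log2 fold change against annotated transcript length (log scale) for the tested ribosomal protein genes (circles, core; triangles, paralogues), in infarction against sham in knockout (left) and knockout against wild type after sham (right). Bars are the medians of all other genes in 5 length classes; short genes outside the family lie on the same side of 0 as the core genes.

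When each library's smooth trend with transcript length and GC content was removed, most calls ended. For infarction against sham in the knockout 3 genes were called instead of 38, of which 2 were called in both fits, and the median fell to 0.08 with 63 of 78 positive. Rpl35 went from 0.48 to 0.23 and Rps6 from 0.40 to 0.14, and neither passed. The 3 called were Rpl3l (-0.76 ± 0.10, adjusted p = 9.55e-05), Rps20 (0.49 ± 0.15, adjusted p = 0.0390) and Rps15a (0.46 ± 0.14, adjusted p = 0.0270). The last 2 are the members with the longest annotated transcripts, and their differences, like that of Rpl3l, grew with the correction. Their annotated lengths far exceed their coding lengths, so these 2 corrected calls depend on the transcript taken. For knockout against wild type after sham 8 genes were called instead of 31, of which 7 were called in both, and the median was -0.14 with 69 of 78 negative. Rpl39 (-0.36 ± 0.09, adjusted p = 0.00930), Rps12 (-0.34 ± 0.10, adjusted p = 0.0286), Rpsa (-0.42 ± 0.13, adjusted p = 0.0302), Rpl38 (-0.47 ± 0.15, adjusted p = 0.0478), Rps24 (-0.35 ± 0.10, adjusted p = 0.0231), and, with the same limit, Rps20 and Rps15a were lower and Rpl3l higher (0.53 ± 0.10, adjusted p = 0.00158). For the interaction, Rpl3l alone was called (-0.69 ± 0.15, adjusted p = 0.0107), and the median was 0.22. The annotated lengths of Rps24 (1613 nt) and Rpl39 (612 nt) also well exceed the positions that code in any of their transcripts (402 and 153). Their corrected values depend on the transcript taken as well. The correction takes annotated lengths, and whether the length trend arose in the tissue or in the libraries was not tested. Rpl38, Rps24 and Rps15a are named here after their values were seen.

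**Figure D5:**
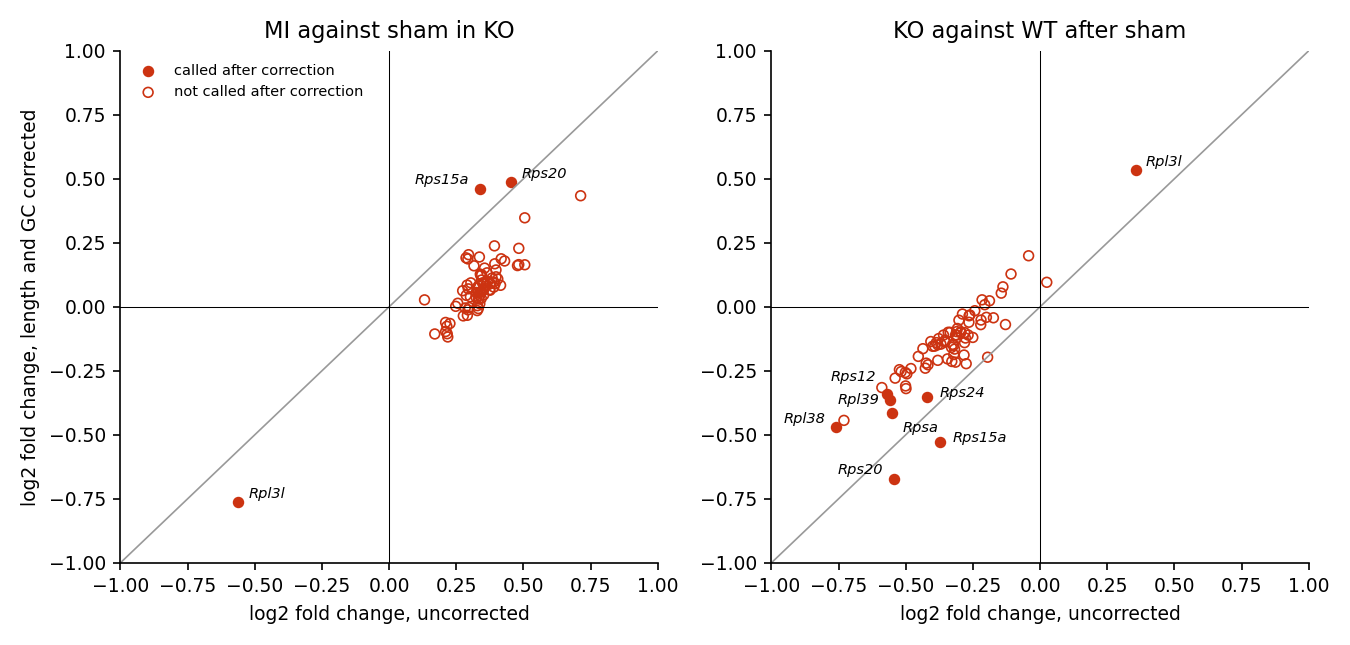
Log2 fold change of the 78 tested ribosomal protein genes without (x axis) and with (y axis) the correction for transcript length and GC content, in infarction against sham in knockout (left) and knockout against wild type after sham (right); filled points passed after correction and the grey line marks equality. Rpl3l lies farther from 0 after correction, and most other genes lie closer to 0.

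Other genes of the translation machinery, and TOP messengers outside it such as vimentin, were read against the same background. Of all genes tested, 7.74% were called lower in knockout against wild type after sham and 8.54% higher after infarction in the knockout. Of 5 tested ribosomal proteins whose symbols fall outside the rule, Rack1, a scaffold on the small subunit, was called lower in knockout against wild type after sham (log2 -0.33 ± 0.10, adjusted p = 0.0317) and all 5 were negative (median -0.24). After infarction in the knockout 3 of the 5 rose, Rps3a1 (0.37 ± 0.09, adjusted p = 0.00653), Rack1 (0.37 ± 0.10, adjusted p = 0.0190) and Fau (0.39 ± 0.11, adjusted p = 0.0254). Of 22 tested genes of elongation, initiation and other TOP messengers, 8 were lower in knockout after sham (median -0.23), led by the elongation factor subunit Eef1d (-0.44 ± 0.09, adjusted p = 0.00326), Pabpc4 (-0.29 ± 0.07, adjusted p = 0.0116) and Eif3k (-0.37 ± 0.10, adjusted p = 0.0149). After infarction in the knockout 7 of the 22 rose (median 0.21), led by vimentin (Vim, 0.44 ± 0.09, adjusted p = 0.00482), Eef1d (0.41 ± 0.09, adjusted p = 0.00550) and Eef1g (0.33 ± 0.08, adjusted p = 0.0121).

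The 61 genes of ribosomal RNA transcription and ribosome assembly had medians near 0 and were called about as often as all genes tested (7.74% lower after sham, 8.54% higher after infarction in the knockout): 5 fell in knockout after sham (median -0.05), among them the snoRNP protein Nop56 (-0.32 ± 0.09, adjusted p = 0.0247), Mrto4 (-0.33 ± 0.10) and the polymerase subunit Polr1d (-0.40 ± 0.12), and 6 rose after infarction in the knockout (median 0.05), among them Polr1c (0.39 ± 0.09, adjusted p = 0.00574), Eif6 (0.30 ± 0.08) and Wdr12 (0.38 ± 0.11). Of 21 genes of mTORC1, TOP and MYC control, 5 rose and 1 fell in knockout after sham (median 0.11). Of all genes tested 7.6% were called higher and 7.74% lower there. The one that fell was the transcription factor Mycn (-0.88 ± 0.16, adjusted p = 0.00103). Among those that rose were the MYC-network genes Mxd4 (0.65 ± 0.15, adjusted p = 0.00630) and Max (0.27 ± 0.08, adjusted p = 0.0300). After infarction in the knockout Mycn rose (0.70 ± 0.16, adjusted p = 0.00599) and 3 of the list fell, among them the translation repressor Eif4ebp2 (-0.49 ± 0.14, adjusted p = 0.0200) and Larp1 (-0.35 ± 0.10, adjusted p = 0.0248), with a list median of -0.15. The shares of all genes tested were 8.54% called higher and 8.02% called lower.

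Lists outside the cytosolic ribosome were set beside the same shares of all genes tested, 7.74% lower after sham and 8.54% higher after infarction in the knockout. Of 49 proteins of the mitochondrial large subunit, 8 fell in knockout after sham (median -0.15), led by Mrpl34 (-0.34 ± 0.08, adjusted p = 0.00746), Mrpl54 (-0.46 ± 0.11) and Mrpl52 (-0.61 ± 0.15), and 4 rose after infarction in the knockout (median 0.13), led by Mrpl34 (0.34 ± 0.08), Mrpl17 (0.29 ± 0.08) and Mrpl21 (0.29 ± 0.08). The 4 of 49 that rose are close to the share of all genes. Of 28 tested short, abundant housekeeping messengers of other functions, 13 fell in knockout after sham (median -0.34). They were led by the dynein light chain Dynll1 (-0.61 ± 0.09, adjusted p = 0.000124), the actin-binding thymosin Tmsb10 (-0.61 ± 0.10, adjusted p = 0.000464) and the respiratory chain subunit Cox8a (-0.73 ± 0.14, adjusted p = 0.00160). After infarction in the knockout 7 of the 28 rose (median 0.20), led by Dynll1 (0.82 ± 0.09, adjusted p = 3.4e-05), Tmsb4x (0.53 ± 0.10, adjusted p = 0.00149) and Tmsb10 (0.53 ± 0.10, adjusted p = 0.00208). The median of these short messengers after sham, -0.34, lay beside the -0.32 of the ribosomal protein genes, whereas after infarction in the knockout it was 0.20 against 0.34.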

How the data were processed

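Polyadenylated RNA from 16 samples of mouse ventricle was sequenced on a HiSeq 4000 from NEBNext Ultra libraries, per the labels' protocols. The authors deposited raw read counts per Ensembl gene, made by HTSeq 0.13.5, and their processing notes also name bcl2fastq 2.17, cutadapt 3.4, FastQC, HISAT2 2.2.1, DESeq2 and GRCm39, per the submitters' processing notes. The order of steps, the strand setting, the annotation release and the treatment of multiply aligned reads are not given in the sources used here. The table also holds 5 HTSeq lines that name no gene, which were left out: reads with no feature made up 23.7 to 28.2% of each column and ambiguous reads 1.56 to 2.08%, and the line for reads aligned to several places is 0 throughout.

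Counts were fitted with edgeR 4.0.16 (R 4.3.3; limma 3.58.1): filterByExpr (13412 genes kept), TMM scaling and glmQLFit with the robust option on all 16 samples, with 4 group means and 12 residual degrees of freedom. Tests were two-sided, with Benjamini-Hochberg adjustment over all genes tested, and called means an adjusted p under 0.05. DESeq2 1.42.0 and limma voom were alternatives, with other scalings, filters, left-out libraries, the replicate number as a block, and removal of each library's trend with transcript length and GC content. Lengths and GC content are medians over principal transcripts in GENCODE M21 (GRCm38), found for 13392 of 13412 genes tested (99.9%) and all 78 tested members. Tables and figures used Python 3.11.15. The scripts were checked on simulated data. Replicates of every group differed beyond sampling noise, so none was merged. Same-numbered samples of different groups had correlated deviations from -0.10 to 0.48. The highest value was that of WT sham replicate 2 with WT MI replicate 2, and the next highest was 0.16. Both libraries also had the lowest summed lung epithelium markers (3.20 and 3.94 CPM). The numbers were not taken to pair samples.

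Genes named were Rpsa, the stalk proteins, Rps6, each paralogue with its parent, per comparison up to 4 members in each direction with the smallest p among those called (the 2 smallest where none was called), and the 3 members least like the rest; others are named as chosen after their values were seen. The members and gene lists were chosen with earlier results of these data known.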

Additional observations from a re-analysis of the deposited data

Results flagged for a closer look

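Single libraries that stood apart from the other 3 of their group by Dixon's criterion were found in 10 of 100 groups tested, over 25 genes; chance alone flags about 1 in 20 groups. KO MI replicate 4 was the outlying library in 8 of them, as the highest of its group. It stood at 354.5 CPM for Rplp2 (others 282 to 286), 619.5 CPM for Rps6 (478 to 495), 480.5 CPM for Rpl10 (417 to 423), 216.1 CPM for Rpl22 (155 to 156), 839.9 CPM for Rps4x (641 to 661), 365.6 CPM for Rpl35 (289 to 301), 268.7 CPM for Rps13 (221 to 227) and 642.7 CPM for Rps7 (473 to 489). These genes share the library and are not independent. Rplp0 was lowest in WT sham replicate 1, at 1120.4 CPM against 1414 to 1440.2 CPM in the others, and Rps13 was highest in KO sham replicate 3, at 194.2 CPM against 182 to 183 CPM.

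The response to infarction differed between genotypes, by the interaction term in edgeR, for Rpl39 (log2 0.72, adjusted p = 0.0418), Rps19 (0.54, adjusted p = 0.0447), Rps27l (0.40, adjusted p = 0.0473) and Rps12 (0.70, adjusted p = 0.0490). In 28 alternatives each was called in 12, 11, 10 and 8, in the same order.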

How the results depend on the processing

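No median changed sign in any alternative, nor did the log2 fold change of a gene named for its small p in a comparison. Over all 78 genes, 64 kept their sign under the length and GC correction for infarction against sham in the knockout, 71 for knockout against wild type after sham and 76 for the interaction, whose calls went from 4 higher to 1 lower. For infarction against sham in wild type, limma voom called 1 gene. For infarction against sham in the knockout (38 called), both length corrections and the added one, fitted without the members and chosen after seeing the data, left 3 called each, with medians of 0.079 (length and GC), 0.085 (length) and 0.088 (added). Leaving out 1 library gave 8 to 46 called and medians of 0.24 to 0.37. For knockout against wild type after sham (31 called), DESeq2 called 50, limma voom 71, and the 3 length corrections 8, 8 and 9, with medians of -0.14, -0.15 and -0.16; leaving out 1 library gave 6 to 54 called and medians of -0.41 to -0.26. For the interaction (4 called), DESeq2 called 23, limma voom 52, no filter 2, the fit without haemoglobin and mitochondrially encoded genes 1, and each length correction 1, which was Rpl3l, with medians of 0.22, 0.25 and 0.26. Leaving out 1 library gave 0 to 28 called and medians of 0.39 to 0.57. The cause of these differences was not tested.

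With the replicate number as a replicate block, 33 genes were called for infarction against sham in the knockout, 28 for knockout against wild type after sham (Rpl3l, log2 0.35, was no longer called) and 0 for the interaction. The labels do not say that a number marks a shared litter or day. With 4 samples per group and unknown handling of reads shared with pseudogenes, small differences between single members are not resolved.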
